A study of Mus musculus with 12 samples.

Results

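Microglia are the resident macrophages of the brain, and 9 genes commonly used to mark them were followed here in mouse brain and liver: Csf1r, Cx3cr1, P2ry12, Tmem119, Aif1, Trem2, Tyrobp, Ctss and Laptm5. Every probe set that the platform annotation gives to 1 of these genes was taken, 12 in all, and each gene was read from whichever of its probe sets had the largest average over the 12 arrays. The 9 genes were 9 of 17097 genes with a value. All 9 passed the filter on low values, which asked for a level at or above the array's median in at least 3 arrays and left 13073 genes to test. Values are log2 intensities, so a difference of 1 is a factor of 2.

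RNA came from brains and livers of 10-week-old male BALB/c mice, collected at death (0 h), at 3 h (bodies kept at room temperature) or at 18 h (bodies kept at 4 °C). Each organ at each time was measured fresh-frozen (FF) and formalin-fixed and paraffin-embedded (FFPE), with 1 array per condition and so 12 arrays. FF RNA was labelled by 3' in vitro transcription (GeneChip 3'IVT Express) and FFPE RNA by whole-transcript amplification (WT-Ovation FFPE, then the Encore Biotin Module), so preservation and labelling cannot be told apart. Time and storage temperature cannot be told apart either. The labels give neither the brain region, nor the number of animals, nor whether arrays share an animal. P-values therefore measure the spread between arrays, not between animals, and precision is limited by how few arrays there are. The fit holds a mean per organ and preservation, and time changes per organ that FF and FFPE share. The spread it leaves is how far FF and FFPE arrays disagree in those time changes. Variation over time that both preservations share does not widen it. No dissociation or sorting is described, so a lower level of a marker can come from fewer cells or from less RNA per cell, which cannot be told apart in such bulk tissue.

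As background, microglia descend from yolk sac progenitors and depend on the receptor CSF1R, whose ligands are CSF1 and IL-34. Several of their markers are shared with other macrophages. CSF1R, AIF1, TYROBP, CTSS and LAPTM5 are made by many myeloid cells, including Kupffer cells, the macrophages of the liver sinusoids, whereas P2RY12 and TMEM119 are much used to tell microglia from other macrophages. The transcription factor PU.1, encoded by Spi1, binds purine-rich sites with a GAGGAA core and is required for macrophages and microglia to form.

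RefSeq promoters (build GRCm38.p6) could be matched to 6 of the 9 genes, and they are shown because 5 of these 6 genes were lower in FF liver than in FF brain. Each run is 70 bases, from 60 before to 10 after the annotated start, 5′ to 3′ on the gene's strand. Capitals mark a match to the letters GAGGAA on either strand, so TTCCTC is a match on the opposite strand. The window was chosen after the matches had been seen. The windows lie at chr9:120068287-120068356 (minus strand), chr3:59262976-59263045 (minus), chr17:35176043-35176112 (minus), chr17:48346341-48346410 (plus), chr3:95526726-95526795 (plus) and chr4:130913256-130913325 (plus).
Cx3cr1: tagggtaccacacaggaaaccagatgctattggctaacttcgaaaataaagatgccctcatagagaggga
P2ry12: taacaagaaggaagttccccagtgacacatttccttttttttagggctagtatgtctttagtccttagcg
Aif1: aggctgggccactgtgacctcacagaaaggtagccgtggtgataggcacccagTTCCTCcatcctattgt
Trem2: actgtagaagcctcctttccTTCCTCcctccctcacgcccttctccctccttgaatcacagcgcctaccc
Ctss: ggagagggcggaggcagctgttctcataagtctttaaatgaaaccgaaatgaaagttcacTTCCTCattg
Laptm5: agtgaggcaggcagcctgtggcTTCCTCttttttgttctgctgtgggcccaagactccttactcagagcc

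Aif1, Trem2, Ctss and Laptm5 held a match in this window, and Cx3cr1 and P2ry12 held none. In Ctss the match is part of the longer run GAGGAAGT on the opposite strand. Of all 32851 mouse promoters, 7.13% held GAGGAA in the same 70 bases and 28.28% in the full 300 bases, and 0.91% held GAGGAAGT in the 70 bases. Over the full 300 bases 4 of the 6 genes held GAGGAA, beside that 28.28%. These letters describe the windows and are not evidence of binding. Spi1 itself lay between 5.0 and 5.36 in all 12 arrays.

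Organ markers matched the labelled organ in all 12 arrays. The 8 neuron markers had a mean log2 level of 9.10 to 10.13 in the 6 brain arrays and 4.49 to 4.74 in the 6 liver arrays. The 9 hepatocyte markers had a mean of 12.02 to 12.16 in liver and 5.22 to 6.61 in brain. The highest brain value, 6.61, was in the FF brain array at 0 h. In that array Alb, the gene of serum albumin, read 8.74, against 6.11 and 5.53 in the other FF brain arrays. Apoa1, an apolipoprotein made by liver, was high at 0 h in both preservations, at 6.91 (FF) and 6.79 (FFPE), against 4.63 to 5.59 in the later brain arrays. Ttr, which choroid plexus and liver both express, was low at 0 h in both, at 8.68 (FF) and 5.77 (FFPE), against 12.03 to 12.72 later. Both 0 h brain arrays therefore stand apart in such genes, and results are given below with and without them where they change a call. The median over all probe sets lay at 4.65 to 4.68 in the FF arrays and a little higher, 4.80 to 4.89, in the FFPE arrays.

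**Figure D1:**
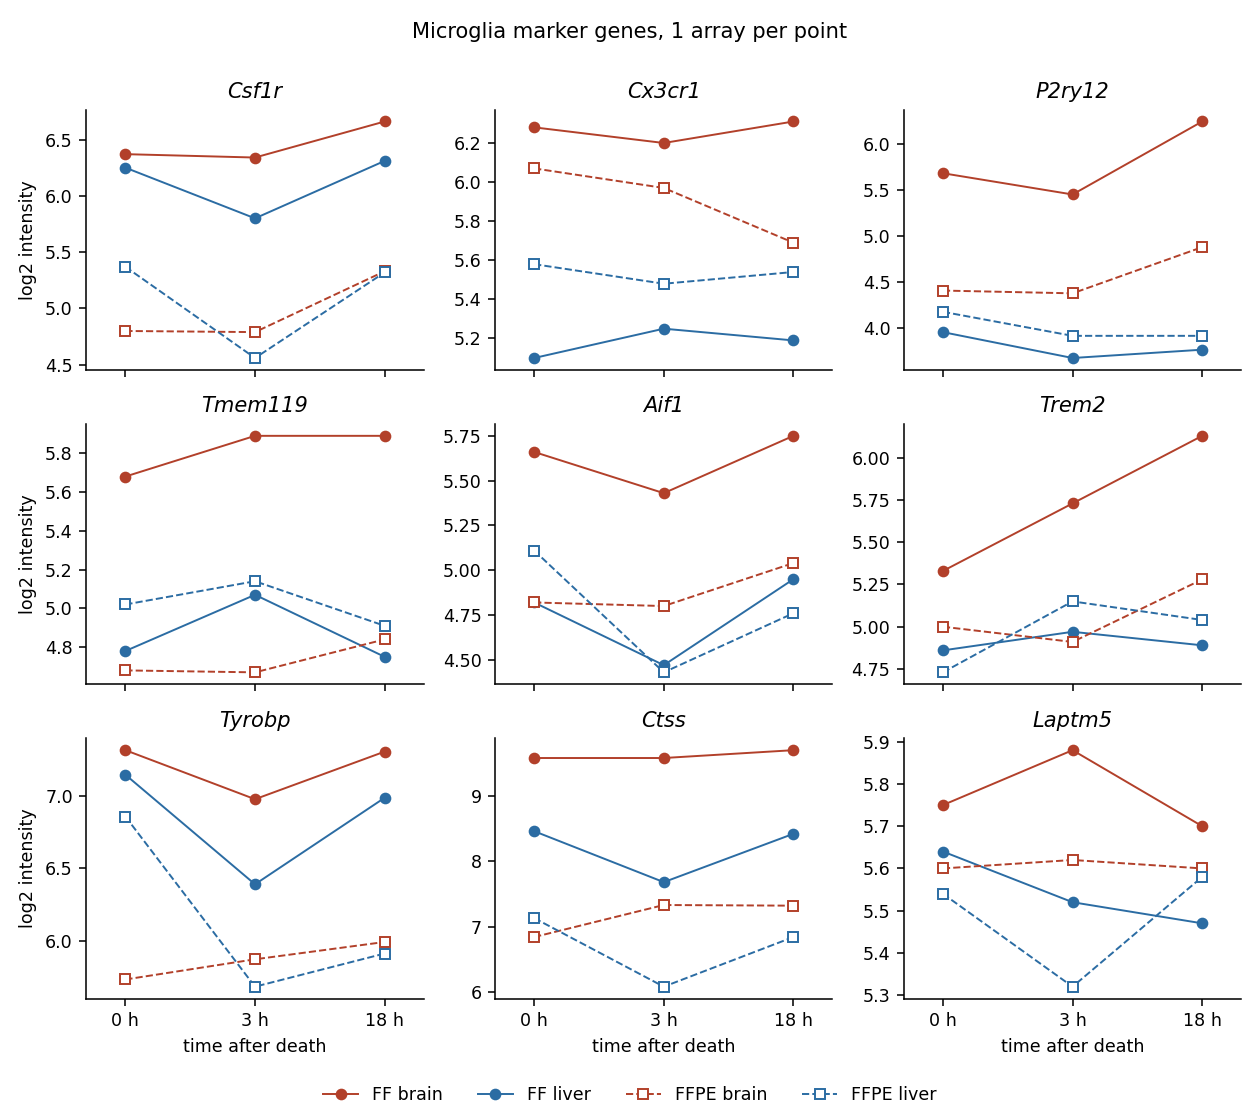
Log2 intensity of each of the 9 genes (1 panel each) against time after death (0, 3 and 18 h, evenly spaced), with 1 array per point and no error bar. Red is brain and blue is liver. Filled circles with solid lines are FF and open squares with dashed lines are FFPE. FF brain lies above FF liver at every time in all 9 panels, and the means of the FFPE brain and liver series lie closer together than those of FF.

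In FF tissue the microglia markers were lower in liver than in brain: 8 of the 9 passed the test, all in that direction, and Laptm5 did not. P2ry12, which passed the filter on low values through brain arrays alone, differed most, 3.96-fold, then Ctss, 2.70-fold, and Cx3cr1, 2.12-fold. All 9 differences were negative at each of the 3 times, which was not counted over all genes. The question here was how far these genes separate brain from a macrophage-rich peripheral organ. The 2 organs differ in most genes, and 74.1% of all genes tested passed in this comparison, 37.5% as lower in liver. The median difference was -0.87 over the 9 genes and 0.04 over all genes tested.

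P2ry12, the receptor for ADP that guides microglial processes to injury, read 5.68, 5.45 and 6.24 in FF brain at 0, 3 and 18 h. In FF liver it read 3.96, 3.68 and 3.77. The groups did not overlap, and all 3 liver values were below their array's median. P2ry12 reached the median in only 4 of the 12 arrays, 3 of FF brain and 1 of FFPE brain. Its liver minus brain calls are therefore not independent of the filter. The same holds for its FFPE minus FF call in brain and for its comparison of the organ difference between preservations. The difference was -1.99 ± 0.11 (SE, adjusted p = 2.2e-09).

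Cx3cr1, the receptor for the neuronal chemokine fractalkine, read 6.28, 6.20 and 6.31 in FF brain and 5.10, 5.25 and 5.19 in FF liver. Its 3 brain values were close to each other, and the groups stood apart. The difference was -1.08 ± 0.12 (adjusted p = 3.1e-06). Tmem119, a transmembrane protein of microglia whose function is little known, read 5.68, 5.89 and 5.89 in FF brain and 4.78, 5.07 and 4.75 in FF liver, again without overlap. Its difference was -0.95 ± 0.11 (adjusted p = 4.3e-06).

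Trem2, a lipid-sensing receptor, signals through the adaptor Tyrobp (DAP12), so the pair work as 1 receptor complex. Trem2 read 5.33, 5.73 and 6.13 in FF brain and 4.86, 4.97 and 4.89 in FF liver. The lowest brain value was still above the highest liver value, and the difference was -0.82 ± 0.13 (adjusted p = 8.6e-05). The second probe set of Trem2 differed by 0.10 and did not pass (adjusted p = 0.436, over all probe sets). Tyrobp read 7.32, 6.98 and 7.31 in FF brain and 7.15, 6.39 and 6.99 in FF liver. Here the groups overlapped, since liver at 0 h was above brain at 3 h. The difference was -0.36 ± 0.15 (adjusted p = 0.0463).

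Csf1r, the receptor that macrophages need to survive, read 6.37, 6.34 and 6.66 in FF brain and 6.25, 5.80 and 6.31 in FF liver. The groups nearly met without overlapping, and the difference was -0.34 ± 0.12 (adjusted p = 0.0212). These were the 2 smallest differences that passed. Tyrobp lost the call with no filter on low values (adjusted p = 0.0567) and Csf1r on the FF arrays alone (0.0604). After quantile normalization across the 12 arrays the Csf1r difference was 0.00 (adjusted p = 0.979) and that of Tyrobp -0.05 (adjusted p = 0.81). The same scaling moved the median over all genes from 0.04 to 0.16.

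Leaving out 1 array ended the Csf1r call for 4 of the 12 arrays: FF brain at 0 h (adjusted p = 0.112) or 3 h (0.104), and FF liver at 0 h (0.126) or 18 h (0.0544). It ended the Tyrobp call for 8 of 12, with differences of -0.37 to -0.16 and adjusted p-values of 0.052 to 0.393. The arrays were FF brain 0 h and 18 h, FF liver 0 h and 3 h, all 3 FFPE brain arrays and FFPE liver 3 h. Without the FF brain array at 0 h, Csf1r differed by -0.29 and Tyrobp by -0.24 (adjusted p = 0.285). The other 6 calls held without any 1 array, including that one, where their differences were -0.81 (Aif1) to -1.97 (P2ry12).

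Aif1 encodes IBA1, the calcium-binding protein that is the standard histological stain for microglia and macrophages. It read 5.66, 5.43 and 5.75 in FF brain and 4.82, 4.47 and 4.95 in FF liver, with no overlap, a difference of -0.87 ± 0.12 (adjusted p = 2.8e-05). Ctss, the lysosomal protease cathepsin S, read 9.58, 9.58 and 9.70 in FF brain. In FF liver it read 8.46, 7.68 and 8.42, all below brain, and the difference was -1.43 ± 0.13 (adjusted p = 2.5e-07). Laptm5, a lysosomal membrane protein of blood cells, read 5.75, 5.88 and 5.70 in FF brain and 5.64, 5.52 and 5.47 in FF liver. The groups did not overlap, yet the difference of -0.23 (95% interval -0.48 to 0.01) did not pass (adjusted p = 0.0814). With 1 array left out it ran from -0.30 to -0.15, with adjusted p-values of 0.0479 (without FFPE liver at 18 h) to 0.288.

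**Figure D2:**
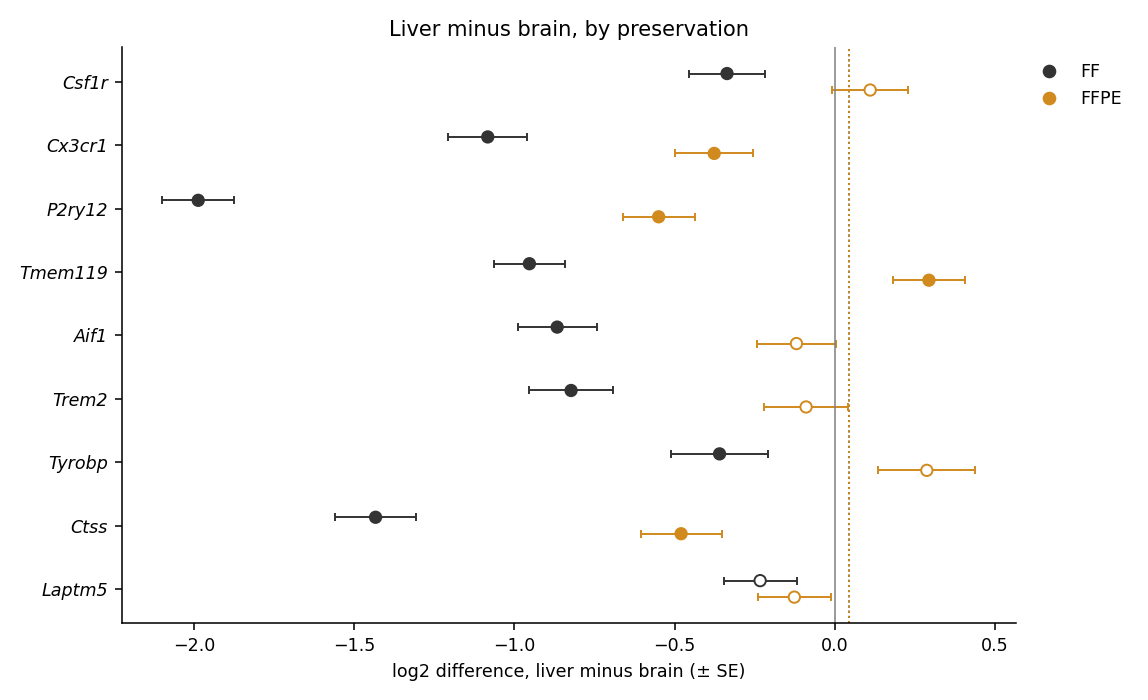
Log2 difference of liver minus brain (± SE) for the 9 genes, from 3 arrays against 3, with FF in black and FFPE in orange. Filled points passed the adjusted threshold, open points did not, and the dotted lines, which overlie each other at 0.04, are the medians of all genes tested. The FF points run from -1.99 to -0.23, and all FFPE points lie to the right of their FF point.

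In FFPE tissue the same separation was mostly not seen: P2ry12, Cx3cr1 and Ctss were lower in liver, Tmem119 was higher, and the other 5 did not pass. Those 4 of 9 compare with 63.5% of all genes tested that passed in this comparison. The median difference was -0.12 over the 9 genes and 0.04 over all genes. The 3 FFPE arrays of an organ are not those of the FF comparison, but all 12 arrays share 1 estimate of the spread.

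P2ry12 read 4.41, 4.38 and 4.88 in FFPE brain and 4.18, 3.92 and 3.92 in FFPE liver. Brain stayed above liver, but 5 of these 6 values were under their array's median. The difference was -0.55 ± 0.11 (adjusted p = 0.000776), the only one of the 4 calls that held without any 1 array.

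Cx3cr1 read 6.07, 5.97 and 5.69 in FFPE brain and 5.58, 5.48 and 5.54 in FFPE liver, a difference of -0.38 ± 0.12 (adjusted p = 0.0165). The groups did not overlap, but the call was lost without FFPE brain at 0 h (adjusted p = 0.118) or 3 h (0.111) or FFPE liver at 3 h (0.107). Ctss read 6.84, 7.33 and 7.32 in FFPE brain and 7.13, 6.08 and 6.84 in FFPE liver. Here the groups overlapped, and the difference of -0.48 ± 0.13 (adjusted p = 0.00477) was -0.38 without FFPE brain at 3 h (adjusted p = 0.0602).

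Tmem119 ran the other way. It read 4.68, 4.67 and 4.84 in FFPE brain, all under the array median, and 5.02, 5.14 and 4.91 in FFPE liver, all above it. The difference was 0.29 ± 0.11 (adjusted p = 0.0349). This call was lost without any of the 6 FFPE arrays or FF brain at 18 h, with differences of 0.23 to 0.34 and adjusted p-values of 0.0527 to 0.197.

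Fitted on the 6 FFPE arrays alone, only P2ry12 passed: Cx3cr1 had an adjusted p of 0.0529, Tmem119 of 0.111 and Ctss of 0.2. Csf1r differed by 0.11 (95% interval -0.15 to 0.37), Aif1 by -0.12, Trem2 by -0.09, Laptm5 by -0.13 and Tyrobp by 0.29, with adjusted p-values of 0.116 to 0.576. The Tyrobp difference ran from 0.085 (without FFPE liver at 0 h) to 0.48 (without FFPE liver at 18 h), with adjusted p-values of 0.672 to 0.0155. Leaving out 1 array gave counts of 1 (without FFPE brain 3 h) to 4 genes. The count was 2 without FFPE brain 0 h or FFPE liver 3 h.

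The difference between preservations was itself tested. The liver minus brain difference was higher in FFPE than in FF, that is, less negative or turned, for 8 of the 9 genes, and Laptm5 did not pass. Of all genes tested, 54.9% passed this test and 36.4% as higher. The median was 0.73 over the 9 genes and 0.18 over all genes. The size was 1.44 ± 0.16 for P2ry12 (adjusted p = 1.1e-05), 1.25 ± 0.16 for Tmem119 (3.3e-05), 0.95 ± 0.18 for Ctss (0.000698), and 0.75 ± 0.17 for Aif1 (0.00308). These 4 passed under each setting that could be fitted and without any 1 array. P2ry12 passed the filter through brain arrays alone, mostly FF, so its value here is not independent of the filter.

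Trem2 (0.73 ± 0.19, adjusted p = 0.00532) and Cx3cr1 (0.71 ± 0.17, 0.00423) lost the call when the probe sets of a gene were averaged, at 0.28 (adjusted p = 0.122) and 0.17 (0.287). Tyrobp (0.65 ± 0.21, 0.0217) and Csf1r (0.45 ± 0.17, 0.0387) each lost it without any of 8 of the 12 arrays, with adjusted p-values up to 0.0975 and 0.115. For Csf1r these were FF and FFPE brain at 0 and 3 h and liver at 0 and 18 h. For Tyrobp they were FF and FFPE brain at 0 and 18 h and liver at 0 and 3 h. Quantile normalization left 5 of the 8 calls and moved the median over all genes from 0.18 to -0.005, with Csf1r (adjusted p = 0.417), Cx3cr1 (0.438) and Tyrobp (0.24) lost. For Laptm5 it was 0.11 (adjusted p = 0.599), and it turned to -0.17 with quantile normalization and to -0.37 (adjusted p = 0.0305) with averaged probe sets.

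The same values can be read along the other axis. In brain, 8 of the 9 genes were lower in FFPE than in FF and Laptm5 did not pass. All 9 differences were negative at each of the 3 times, again not counted over all genes. Of all genes tested, 81.8% passed and 53.4% as lower. The median difference was -1.09 over the 9 genes and -0.42 over all genes. Ctss fell by 2.46 (± 0.13, adjusted p = 2.0e-09), which is 5.49-fold: its FF brain values of 9.58 to 9.70 compare with 6.84, 7.33 and 7.32 in FFPE brain.

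Csf1r read 4.80, 4.79 and 5.33 in FFPE brain, a difference of -1.48 ± 0.12 from FF (adjusted p = 9.9e-08). Tyrobp read 5.73, 5.87 and 5.99 there, a difference of -1.34 ± 0.15, and P2ry12 differed by -1.23 ± 0.11. Tmem119 differed by -1.09 ± 0.11. For these 5 genes every FFPE brain value lay below every FF brain value. The share of all genes that separate in this way was not counted.

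Aif1, at 4.82, 4.80 and 5.04 in FFPE brain, differed by -0.73 ± 0.12, and Trem2, at 5.0, 4.91 and 5.28, by -0.67 ± 0.13. Neither overlapped its FF values, a separation likewise not counted over all genes. With averaged probe sets the Trem2 difference was -0.22 and did not pass (adjusted p = 0.0693), and its second probe set alone read 0.24 higher in FFPE brain (adjusted p = 0.0654). Cx3cr1 differed by -0.35 ± 0.12 (adjusted p = 0.0174), less than the median gene. It was 0.24 (adjusted p = 0.0281) with averaged probe sets and 0.12 (0.423) after quantile normalization. Without FF or FFPE brain at 18 h it was -0.22 (adjusted p = 0.189). Laptm5 read 5.60, 5.62 and 5.60 in FFPE brain, a difference of -0.17 (adjusted p = 0.183) that turned to 0.35 (0.00448) with averaged probe sets and 0.07 with quantile normalization.

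In liver, 3 of the 9 were lower in FFPE than in FF and 1 was higher, beside 71.2% of all genes that passed. The median was 0.02 over the 9 genes and -0.17 over all genes. Ctss fell by 1.50 ± 0.13 (adjusted p = 4.2e-07), Csf1r by 1.04 ± 0.12 (6.0e-06) and Tyrobp by 0.69 ± 0.15 (0.00118). Cx3cr1 was 0.35 ± 0.12 higher (adjusted p = 0.0204), and the call was lost without FF or FFPE liver at 0 h (0.29, adjusted p = 0.105) and with quantile normalization (0.31, 0.057). P2ry12 (0.20), Tmem119 (0.16), Trem2 (0.07), Aif1 (0.02) and Laptm5 (-0.06) did not pass.

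**Figure D3:**
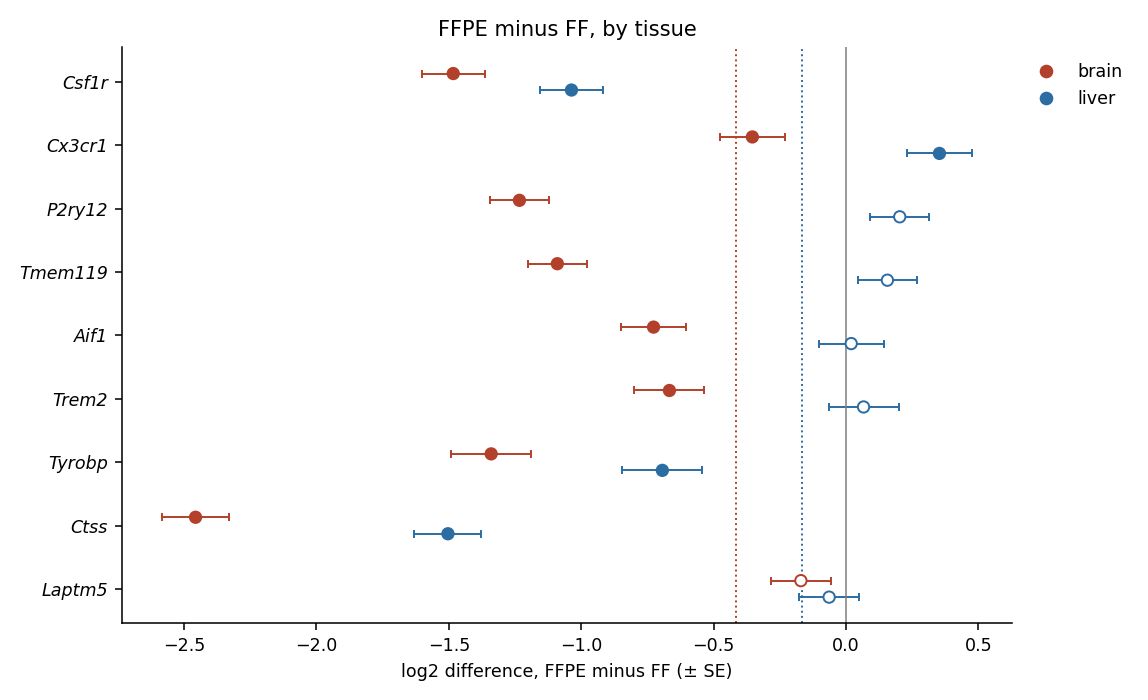
Log2 difference of FFPE minus FF (± SE) for the 9 genes, from 3 arrays against 3, with brain in red and liver in blue. Filled points passed the adjusted threshold and dotted lines are the medians of all genes tested (-0.42 in brain, -0.17 in liver). Brain runs from -2.46 for Ctss to -0.17 for Laptm5, and each liver point lies to the right of its brain point.

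A measure of where along a transcript the signal lies moved with preservation. The array carries control probe sets at the 3' and 5' ends of Gapdh. Their log2 gap was -0.02 to 0.05 in FF brain and 1.22 to 1.25 in FFPE brain. It was 0.03, 0.82 and 1.14 in FF liver at 0, 3 and 18 h, and 1.04, 1.63 and 1.77 in FFPE liver. The gap for Actb ran the other way with preservation, 1.21 to 1.32 in FF brain and -0.12 to 0.05 in FFPE brain. In FF liver it was 1.09, 2.0 and 1.90 at 0, 3 and 18 h, higher after death as for Gapdh, and in FFPE liver it was -0.12, -0.01 and -0.18. The part of these differences in the values of the microglia markers was not tested.

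Over time after death, 1 of the 9 genes passed in liver at 3 h: Ctss was 0.92 lower than at 0 h, in a comparison where 0.245% of all genes tested passed. Tyrobp, Csf1r, Aif1, P2ry12 and Laptm5 also read lower at 3 h in both preservations and did not pass. Tmem119 and Trem2 read higher in both, and Cx3cr1 higher in FF and lower in FFPE. How many of all genes moved the same way in both preservations was not counted. In FF liver the 3' to 5' gaps of Gapdh and Actb were larger at 3 h than at 0 h, and their part in these changes was not tested. Each time was compared over 2 arrays, FF and FFPE, against the 2 at 0 h, and the 3 h and 18 h changes share the 0 h arrays.

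Ctss read 8.46, 7.68 and 8.42 in FF liver at 0, 3 and 18 h, and 7.13, 6.08 and 6.84 in FFPE liver. In both preservations the 3 h array was the lowest of the 3 and the 18 h array lay between it and 0 h. Between the FF arrays the 3 h change was -0.78, between the FFPE arrays it was -1.05, and the fit gave -0.92 ± 0.15 (adjusted p = 0.0293). The call rests on all arrays but the 2 liver arrays at 18 h. Without any of the other 10 arrays (the 6 brain arrays and the FF and FFPE liver arrays at 0 and 3 h) the change was -1.05 to -0.79 and the adjusted p 0.0503 to 0.337. It was also lost with no filter on low values (0.0623), with quantile normalization (0.0713) and on the 6 liver arrays alone (0.218).

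Tyrobp read 7.15, 6.39 and 6.99 in FF liver and 6.86, 5.68 and 5.91 in FFPE liver. Its 3 h change was -0.76 between the FF arrays, -1.18 between the FFPE arrays, and the fit gave -0.97 ± 0.19 (adjusted p = 0.0554). It passed without FF liver at 0 h (-1.27, adjusted p = 0.0352) and without FF or FFPE liver at 18 h (0.0166). At the other end, leaving out an array gave -0.67, with adjusted p-values up to 0.4. Csf1r changed by -0.45 in FF and -0.81 in FFPE (fit -0.63 ± 0.15, adjusted p = 0.134). Aif1 changed by -0.35 and -0.68 (fit -0.52 ± 0.15, adjusted p = 0.257).

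The other 5 genes had 3 h changes of -0.27 (P2ry12) to 0.27 (Trem2) in liver. The median change was -0.27 over the 9 genes and -0.01 over all genes tested. Depending on which array was left out, 0 to 2 of the 9 genes passed at 3 h. Of all genes, 1206 had an unadjusted p under 0.05.

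From 3 h to 18 h the level in liver was higher again for Ctss and Csf1r, which both passed. Of all genes, 10.3% passed and 2.76% as higher. Ctss rose by 0.75 ± 0.15 (adjusted p = 0.0102), with single-pair changes of 0.74 (FF) and 0.76 (FFPE). Csf1r rose by 0.64 ± 0.15 (adjusted p = 0.0167), with 0.51 (FF) and 0.76 (FFPE). Ctss lost the call without FF liver at 3 h (0.82, adjusted p = 0.0682) or FFPE liver at 3 h (0.68, 0.131). Csf1r lost it without FF liver at 3 h (0.79, 0.0541), FFPE liver at 3 h (0.48, 0.229) or FFPE liver at 18 h (0.60, 0.0558), and on the liver arrays alone (0.0717). Tyrobp changed by 0.42 (adjusted p = 0.188), from 0.13 without FF liver at 18 h (adjusted p = 0.778) to 0.71 without FFPE liver at 18 h (0.0464). Aif1 changed by 0.41 (adjusted p = 0.113) and Tmem119 by -0.28 (adjusted p = 0.24).

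At 18 h against 0 h, none of the 9 genes passed in liver by limma, beside 14.5% of all genes (3599 genes had an unadjusted p under 0.05). Tyrobp came nearest, at -0.56 ± 0.19 (adjusted p = 0.066), from single-pair changes of -0.16 (FF) and -0.95 (FFPE). It passed without FF liver at 0 h (-0.86, adjusted p = 0.0266) or at 18 h (-0.85, 0.0157), and was -0.25 without FFPE liver at 0 h and -0.27 without FFPE liver at 18 h, with adjusted p-values up to 0.539. The other 8 changed by -0.23 to 0.17.

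**Figure D4:**
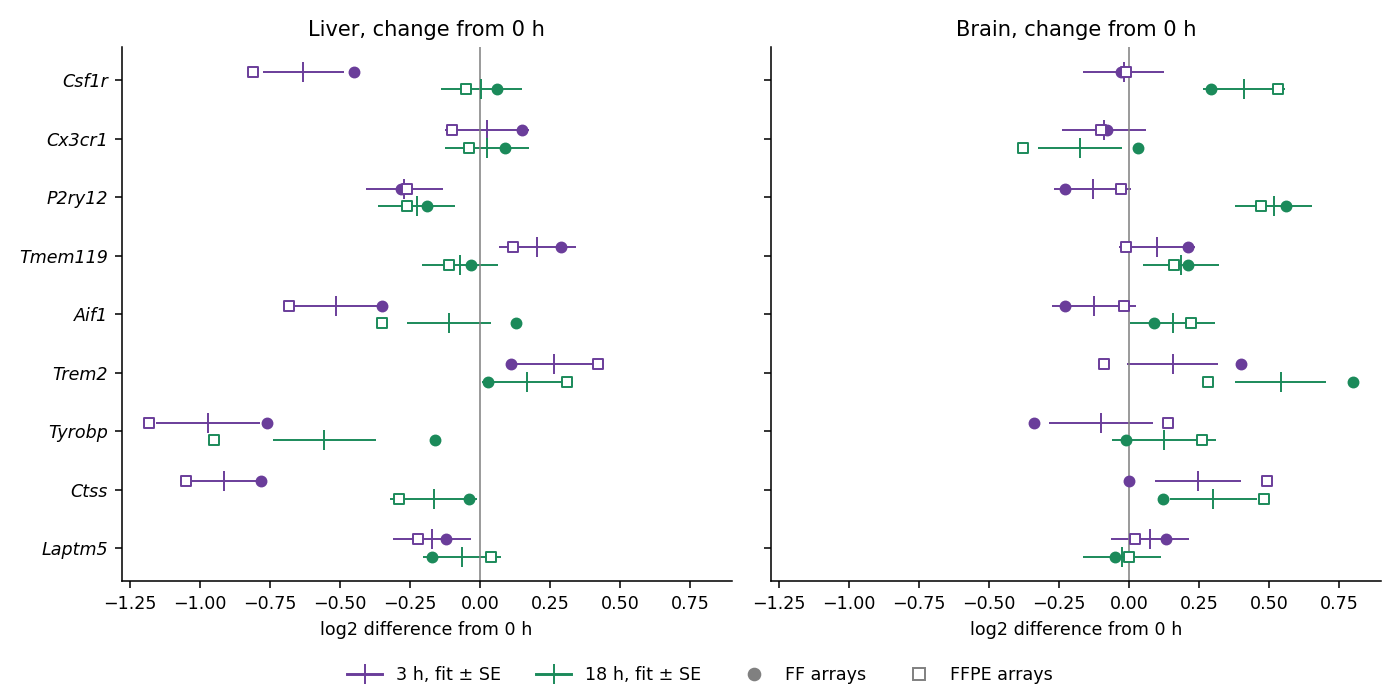
Log2 change from 0 h of the 9 genes in liver (left) and brain (right), at 3 h (purple) and 18 h (green). Bars are the fitted change ± SE, filled circles the FF arrays and open squares the FFPE arrays. In liver at 3 h 6 of the 9 genes lie left of 0 in both preservations, with Tyrobp and Ctss farthest. In brain at 18 h 6 of the 9 lie right of 0 in both, although none passed. The share of all genes on the same side in both was not counted.

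The liver 3 h arrays were also low in other macrophage genes. Of 11 Kupffer cell genes 10 were tested, and 4 fell at 3 h, where 0.168% of all genes fell, with a median change of -0.70 over the 10. Vsig4, which binds complement C3b, fell by 1.91 ± 0.21 (adjusted p = 0.00322), and Cd5l, a secreted macrophage protein, by 1.46 ± 0.22 (0.0176). Fcna fell by 1.05 and Clec4f, a Kupffer cell lectin, by 1.02. From 3 h to 18 h 5 of the 10 rose, as did 2.76% of all genes. At 18 h Vsig4 (-0.875) and C6 (-0.55) were lower than at 0 h, as were 10.9% of all genes, and the others did not pass.

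The mean level of the 10 Kupffer genes was 7.62, 6.88 and 7.49 in FF liver at 0, 3 and 18 h and 7.06, 6.20 and 6.62 in FFPE liver. It was 4.48 to 4.83 in the 6 brain arrays, near the array medians. The 3 C1q genes, made by microglia and by Kupffer cells, all fell in liver at 3 h, where 0.168% of all genes fell. C1qc fell by 1.49, C1qb by 1.26 and C1qa by 1.20 (adjusted p = 0.0458 for C1qa, by limma). How these calls hold with an array left out was not checked. At 18 h C1qc (-0.745) and C1qa (-0.725) were lower than at 0 h, and C1qb did not pass.

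Genes of the sinusoidal endothelium had a mean level of 7.25, 6.68 and 7.79 in FF liver and 6.82, 6.21 and 6.99 in FFPE liver. They were lowest at 3 h too, although 0 of the 6 tested passed at 3 h (median change -0.65) and 5 rose from 3 h to 18 h, beside the same 2.76% of all genes. The hepatocyte markers stayed at 12.02 to 12.16 in all 6 liver arrays. The part of these cell types in the changes of Ctss and Csf1r was not tested.

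In brain, 0 of the 9 genes passed at 3 h by limma, beside 0.0765% of all genes, and 0 passed at 18 h, beside 0.0306%. Over all genes tested, 684 had an unadjusted p under 0.05 at 3 h and 494 at 18 h. The changes at 3 h were -0.13 to 0.25 (adjusted p = 0.995 for each). At 18 h the median change over the 9 genes was 0.19. P2ry12 read 5.68 at 0 h and 6.24 at 18 h in the FF arrays, and 4.41 and 4.88 in the FFPE arrays, a fitted change of 0.52 ± 0.14 (adjusted p = 0.812). Trem2 changed by 0.54 ± 0.16 and Csf1r by 0.41 ± 0.15 (adjusted p = 0.995 for both). These 3, and Tmem119, Aif1 and Ctss, read higher at 18 h in both preservations, and none of them passed. The share of all genes that read higher in both, or were highest in 1 array, was not counted. The 18 h FF brain array was the highest of all 12 for 6 of the 9 genes, and for Tmem119 it was level with FF brain at 3 h. Tyrobp was highest in FF brain at 0 h and Laptm5 in FF brain at 3 h. Without either 0 h brain array, 0 of the 9 passed as well.

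Whether the change differed between the organs was tested as well. At 3 h, 0 of the 9 genes passed, beside 0.0153% of all genes (982 genes had an unadjusted p under 0.05). The liver minus brain difference in the 3 h change was -1.16 ± 0.22 for Ctss (adjusted p = 0.159), -0.87 ± 0.26 for Tyrobp (0.493) and -0.61 ± 0.21 for Csf1r (0.551). At 18 h, 0 passed, beside 4.48% of all genes (2529 with an unadjusted p under 0.05). P2ry12 came nearest at -0.74 ± 0.19 (adjusted p = 0.0516), and it passed with no filter (0.0489), with averaged probe sets (0.0296) and without FF liver at 18 h (-0.78, 0.0397). With an array left out it ran from -0.84 to -0.65, with adjusted p-values up to 0.237. Tyrobp stood at -0.68 ± 0.26 (0.172), and passed without FF liver at 18 h (-0.97, 0.035). With an array left out it ran from -0.98 to -0.38, with adjusted p-values up to 0.528.

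Cx3cr1, Trem2 and Laptm5 had a second probe set, and in FF tissue these did not repeat the organ difference of the first. For Laptm5 the second probe set read 4.96, 5.17 and 5.13 in FF brain and 5.78, 5.48 and 5.55 in FF liver. Liver was above brain at each time, and the difference was 0.52 ± 0.11 (adjusted p = 0.00131, over all probe sets), against -0.23 for the first. In FFPE tissue it was -0.33 (adjusted p = 0.0229), the same direction as the first, and FFPE brain was 0.87 above FF brain (1.3e-05).

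For Trem2 the second probe set read 4.96, 5.04 and 5.07 in FF brain and 5.23, 5.14 and 5.0 in FF liver, a difference of 0.10 (adjusted p = 0.436) against -0.82. In FFPE tissue the second differed by -0.08 and the first by -0.09. The second probe set of Cx3cr1 lay under every array's median and was not tested. It read 3.70, 3.79 and 3.86 in FF brain and 3.67, 3.77 and 3.80 in FF liver, and 4.58, 4.60 and 4.68 in FFPE brain and 4.16, 4.15 and 4.31 in FFPE liver. Brain was thus above liver in FFPE, as for the first probe set, while the FF groups overlapped. The direction for Laptm5 and the call for Trem2 in FF tissue therefore depend on the probe set. Their probe sets had nearly the same mean over the arrays, 5.60 and 5.57 for Laptm5 and 5.17 and 5.15 for Trem2.

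**Figure D5:**
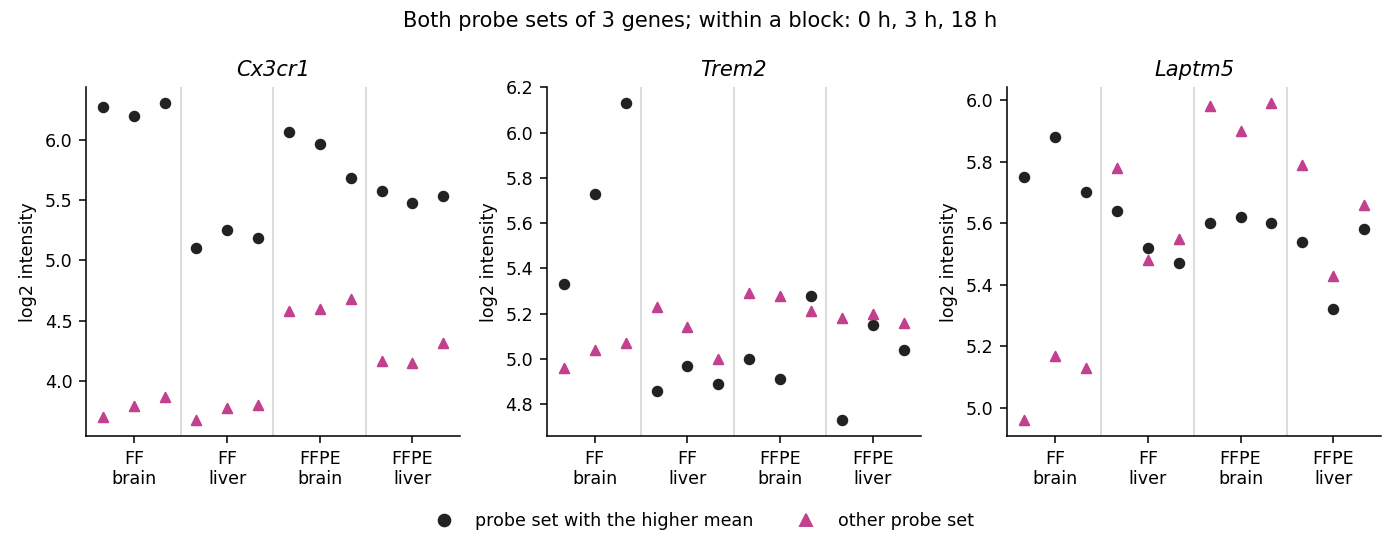
Log2 intensity of both probe sets of Cx3cr1, Trem2 and Laptm5 in the 12 arrays, in blocks of FF brain, FF liver, FFPE brain and FFPE liver, each with 0, 3 and 18 h from left to right and 1 array per point. Black circles are the probe set with the higher mean and pink triangles the other one, and only the pattern across arrays is comparable, not the height. For Laptm5 the circles are lower in FF liver than in FF brain and the triangles are higher.

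Other genes of the same biology passed in both directions between the organs. Of 13 further microglia-enriched genes 9 were tested. In FF tissue 4 were lower in liver, among them Gpr34 (-1.79), a G protein-coupled receptor, and Selplg (-1.65), a selectin ligand. Another 5 were higher in liver, led by Rnase4 (4.33), a secreted ribonuclease, and the fructose transporter Slc2a5 (1.25). Their median difference was 0.39. In FFPE tissue 3 were lower and 3 higher. These 9 of 9 in FF and 6 of 9 in FFPE stand beside 74.1% and 63.5% of all genes, so the FFPE count is near the background.

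Of the 6 ligand genes 5 were tested, and 4 passed in FF and 3 in FFPE, near the shares of all genes. Cx3cl1, the fractalkine that binds CX3CR1, was 4.65 lower in FF liver than in FF brain and 2.91 lower in FFPE, and its receptor was lower in liver in both too. Il34 was lower by 1.34 in FF liver, while Apoe, a lipid carrier that TREM2 binds, was higher by 1.23 in FF and 3.70 in FFPE. Csf1 differed by 0.66 in FF.

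Downstream of these receptors, 10 of 12 signalling genes were tested. In FF tissue 5 were higher in liver and 1 lower, led by the phosphatase Ptpn6 (1.74), the ubiquitin ligase Cbl (-1.69) and Stat3 (0.91). In FFPE tissue 2 were higher and 5 lower. The 6 of 10 and 7 of 10 are near or below the shares over all genes, 74.1% and 63.5%. None of the 10 passed in liver at 3 h.

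Of the 14 cathepsin and lysosome genes, 9 were higher in FF liver than in FF brain, where 36.5% of all genes were higher, with a median of 0.83. Cst3, a cathepsin inhibitor, and Lgmn, a lysosomal protease, were lower, by 2.48 and 1.51, and 3 did not pass. In FFPE tissue 11 were higher in liver and 1 lower, beside 34.5% and 29% of all genes. In FFPE brain 11 were lower than in FF brain and 2 higher, with a median of -1.02, beside 81.8% of all genes that passed and 53.4% that were lower.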

How the data were processed

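The deposited values are log2 intensities for each probe set on each array. Per the submitters' processing notes, the authors computed them with RMA (Affymetrix Expression Console). They do not state whether all arrays were processed in 1 run. Of 45141 probe sets, 28898 were listed with 1 gene, and each gene took its probe set with the highest mean. limma 3.58.1 (R 4.3.3) fitted 4 means (organ by preservation) and a 3 h and an 18 h change per organ, 8 coefficients with 4 residual degrees of freedom, over 13073 genes. All tests were two-sided, p-values were adjusted by Benjamini-Hochberg across those genes, and the threshold was 0.05. The steps were tested on simulated data. The 9 genes and the lists of other genes were chosen with earlier results of these data known. The rule for named genes took all 9, plus from each list up to 4 genes that passed, or 3 as values where none did. Spi1, Csf1, Il34 and Cx3cl1 could always be named, as could the 5 genes most like Cx3cr1, Tyrobp and the mean of the 9. Alb, Ttr and the Gapdh and Actb control probe sets were chosen after their values were seen. Alternatives were no filter, averaged probe sets, quantile normalization, each probe set on its own, the arrays of a comparison alone, robust spread and each array left out in turn.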

Additional observations from a re-analysis of the deposited data

Results flagged for a closer look

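The liver minus brain difference was not the same in FFPE as in FF tissue for 8 of the 9 genes, by a test of that difference itself (limma, adjusted over all genes). FFPE minus FF was 1.44 for P2ry12, 1.25 for Tmem119, 0.95 for Ctss, 0.75 for Aif1, 0.73 for Trem2, 0.71 for Cx3cr1, 0.65 for Tyrobp and 0.45 for Csf1r, on the log2 scale. The 8 shift the same way, and 36.4% of all genes tested did so too. The value of P2ry12 is not independent of the filter on low values. The neuron markers Gad1 (2.36), Rbfox3 (1.69), Stmn2 (1.41) and Syt1 (1.09), also higher in brain, passed with the same direction. Snap25 went the other way, with a liver minus brain difference of -8.78 in FF and -9.18 in FFPE. Preservation and labelling kit cannot be told apart here. Each condition had 1 array, so no group was large enough to test for an array far from the others.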

How the results depend on the processing

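The 108 differences (9 genes in 12 comparisons) were recomputed with each of the 12 arrays left out and under 6 other settings, all planned. Of 1809 values, 1700 kept direction and side of the threshold, counting 24 sign changes under 1 SE of differences that passed in neither, 75 lost a call, 13 gained one and 21 reversed. The 1700 is no measure of how well calls held, since most of the 108 differences had no call to lose. Many arrays left out could not move a given difference either, only its p-value. The cause was not tested. For FF liver against brain, Csf1r and Tyrobp lost the call with quantile normalization. Counts of genes that passed were 1 for FFPE liver against brain on the FFPE arrays alone (4 with all arrays), 5 for its difference from FF with quantile normalization (8 before), 0 for liver at 3 h with no filter, with quantile normalization or on the liver arrays alone (1 before), 1 for liver from 3 to 18 h on those arrays (2 before), and 1 for the organ difference at 18 h with no filter or averaged probe sets (0 before). With each array left out they ran 1 to 4, 6 to 7, 0 to 2, 0 to 2 and 0 to 2 in the same order, and 0 to 1 for liver at 18 h. Reversed with quantile normalization were liver minus brain in FF for Csf1r (0.0042) and Laptm5 (0.048), the latter's difference between preservations (-0.17), FFPE minus FF in brain for Cx3cr1 (0.12) and Laptm5 (0.074), and in liver for Aif1 (-0.14) and Trem2 (-0.082). With averaged probe sets those of Laptm5 were 0.14, -0.37 and 0.35, and that of Cx3cr1 0.24. With an array left out, the values that changed sign ran from -0.18 to 0.078 (Trem2, FFPE liver minus brain), -0.12 to 0.13 (Aif1, FFPE minus FF in liver), -0.10 to 0.41 and -0.29 to 0.087 (Trem2 and Tyrobp, brain at 3 h), -0.38 to 0.025 and -0.062 to 0.31 (Cx3cr1 and Tyrobp, brain at 18 h), -0.31 to 0.092 (Aif1, liver at 18 h) and -0.14 to 0.36 (Trem2, organ difference at 3 h). Arrays could not be paired by animal, because the labels do not say which arrays share an animal. Arrays of the same organ and time already share the time terms of the model. Values near or below the array median are limited by signal over background, and P2ry12 lay below the median in every liver array.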

Other observations

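Over the 12 arrays, the genes whose pattern was most like that of Cx3cr1 were Mdga2, Camk2a (both Pearson r = 0.976), Auts2, Trim66 (both 0.975) and Rbm20 (0.974). Camk2a encodes a kinase abundant in neurons. Those most like Tyrobp were Commd4 (0.946), C1qa (0.940), Eif2a (0.931), Yjefn3 (0.929) and Spg20 (0.928). These are descriptions over 12 arrays that share 2 organs and 2 preservations, so any gene that differs by organ or preservation scores high. With the mean of each organ and preservation taken off, the 9-gene mean over the 6 liver arrays was most like Agtr1a (0.998), Ipo11 (0.997), Gsta2 (0.996), Cd5l (0.994) and B3galt2 (0.991). These 5 were the closest of all genes tested over only 6 arrays, so a high r carries little weight. Among the 9 genes, Ctss (0.980), Aif1 (0.973), Tyrobp (0.944) and Csf1r (0.932) ran with that mean, of which they are part. P2ry12 (0.815) and Laptm5 (0.684) did so less closely, and Cx3cr1 hardly (0.082). Trem2 (-0.909) and Tmem119 (-0.701) ran against it.

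Further myeloid lists were read in the same arrays. Of 11 pan-macrophage genes tested, Lyz2, a lysozyme of macrophages, fell in liver at 3 h by 1.16 ± 0.16 (adjusted p = 0.0135), with a median of -0.47 over the 11. It was the only 1 of the 11 to pass, where 0.245% of all genes did. From 3 h to 18 h Lyz2 (0.79), Fcgr3 (0.78) and Cd68 (0.60) rose, beside 2.76% of all genes that rose. None of 7 monocyte and neutrophil, 8 antigen presentation, 5 lymphocyte, 4 border macrophage, 11 microglia activation or 5 astrocyte and oligodendrocyte genes passed in liver at 3 h. In liver at 18 h against 0 h, S100a9, a neutrophil protein, rose by 0.81 (adjusted p = 0.018), while the cathepsins Ctsh and Ctsc fell by 0.98 and 0.69. Of all genes, 3.61% were higher and 10.9% lower there.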
